A study of Mus musculus with 24 samples.

Results

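A group of 86 genes was set apart in mice lacking caspase-1 (Casp1-null) from wild-type (WT) mice in the liver and in all 3 segments of the small intestine, on the same side each time. They were 86 of the 18820 genes measured. Each gene was represented by 1 probe set, the one with the highest mean over all 24 arrays. Members were selected on measured values: a gene was chosen by the genotype difference itself when, in the liver, duodenum, jejunum and ileum alike, all 3 Casp1-null arrays lay outside the range of the WT arrays on the same side and the means differed by at least 0.3 on the log2 scale. Of the members, 33 were higher and 53 were lower in Casp1-null mice. The rule met 88 genes, and Nnt and Hsd3b3 were left out of the group by the rule itself.

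Liver and scraped intestinal epithelium were profiled on 24 single-colour arrays, with 3 arrays for each of 8 groups. The Casp1-null mice carried a caspase-1 null allele backcrossed for 10 generations to C57Bl/6, and the WT mice were age-matched C57Bl/6J animals; all were males of 14 to 16 weeks on chow. Livers were taken after a fast of 16 h. Intestines were taken from overnight-fasted mice 2 h after 200 µL of olive oil by gavage, so tissue and treatment cannot be told apart in any comparison of liver with intestine. No arrays came from mice of the Casp1-null background with an intact Casp1 gene, so an effect of the null allele and a strain difference cannot be told apart for any member. Nothing in the labels says that arrays of a group came from separate mice, and p-values then measure the spread between these samples only.

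Caspase-1 is the protease at the centre of inflammasomes, protein platforms that assemble on sensing microbes or cell damage. It cleaves the precursors of interleukin-1β and interleukin-18 and opens pores in the cell membrane through gasdermin D. Backcrossing replaces the genome of a founder strain with that of the recipient strain generation by generation, and the region around the selected allele is replaced last.

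All values are log2 expression values from the authors' robust multi-array averaging. Because the choice of members used the genotype difference of all 24 arrays, these differences are given as a description, without a test. Over all genes, the same rule applied to 1 tissue was met by 10.4% in liver (4.38% higher and 6% lower in Casp1-null mice), 11.6% in duodenum (7.56% and 4.03%), 10.4% in jejunum (5.87% and 4.49%) and 4.19% in ileum (2.12% and 2.07%). In all 4 tissues it was met by 0.468%, with 0.181% higher and 0.287% lower in Casp1-null mice. As a line for background, the lowest of the 6 array medians of a tissue was used, and a group whose mean fell under it was not taken as detected. The line stood at 5.19 in liver, 4.87 in duodenum, 4.88 in jejunum and 4.92 in ileum. Against such a group a difference is given as "at least", and where neither group reached the line the size is left out. In bulk tissue, fewer cells of a type and less RNA per cell cannot be told apart.

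Casp1 itself was not a member. In liver it measured 3.80, 4.27 and 4.24 in Casp1-null mice, against 4.51, 4.60 and 4.22 in WT mice, and both groups lay under the line for background. The jejunal values were 6.33, 6.52 and 5.82 in Casp1-null mice, against 9.13, 9.44 and 9.32 in WT mice. In duodenum and ileum the Casp1-null groups averaged 6.46 ± 0.06 and 7.49 ± 0.28, against 8.53 ± 0.39 and 9.71 ± 0.37 in WT mice (SD, n = 3 each). The arrays of the intestine thus separated by genotype at Casp1, and those of the liver could not be checked with it.

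The members with the most even and the largest differences are shown first with the promoters of 4 of them, taken from RefSeq (GRCm38.p6), each running from 250 bases before to 50 bases after the start of transcription. Arhgap6 and Hccs are printed because they are close neighbours on chromosome X and were both higher in Casp1-null mice, Cyp2c55 because it had the largest lower difference, and Mrpl20 because it was among the members that differed most evenly. Capitals mark matches on either strand. The letters searched were TATAAA for the TATA box, CCAAT for the CCAAT box, GGGCGG for the GC box and CACGTG for an E-box; no matches overlapped in these windows.
Arhgap6 promoter, chrX:169036361-169036660, plus strand: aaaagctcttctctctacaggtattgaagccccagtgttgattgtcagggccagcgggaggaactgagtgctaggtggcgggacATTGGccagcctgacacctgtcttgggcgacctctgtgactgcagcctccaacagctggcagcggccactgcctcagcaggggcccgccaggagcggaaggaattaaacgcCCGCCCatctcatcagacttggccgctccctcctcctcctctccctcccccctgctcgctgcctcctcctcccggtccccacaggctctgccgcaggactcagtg
Hccs promoter, chrX:169320323-169320622, minus strand: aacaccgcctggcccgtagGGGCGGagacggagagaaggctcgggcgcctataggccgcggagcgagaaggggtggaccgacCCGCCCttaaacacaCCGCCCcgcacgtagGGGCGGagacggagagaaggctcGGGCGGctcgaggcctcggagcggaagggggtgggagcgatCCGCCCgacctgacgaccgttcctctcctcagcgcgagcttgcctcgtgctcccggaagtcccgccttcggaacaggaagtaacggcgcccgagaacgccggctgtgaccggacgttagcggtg
Cyp2c55 promoter, chr19:39006769-39007068, plus strand: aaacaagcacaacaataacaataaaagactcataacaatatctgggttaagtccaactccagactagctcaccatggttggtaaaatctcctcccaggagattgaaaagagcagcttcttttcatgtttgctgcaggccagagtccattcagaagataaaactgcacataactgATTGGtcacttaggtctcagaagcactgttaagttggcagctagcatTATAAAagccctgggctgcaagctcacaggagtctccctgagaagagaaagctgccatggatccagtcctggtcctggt
Mrpl20 promoter, chr4:155802628-155802927, plus strand: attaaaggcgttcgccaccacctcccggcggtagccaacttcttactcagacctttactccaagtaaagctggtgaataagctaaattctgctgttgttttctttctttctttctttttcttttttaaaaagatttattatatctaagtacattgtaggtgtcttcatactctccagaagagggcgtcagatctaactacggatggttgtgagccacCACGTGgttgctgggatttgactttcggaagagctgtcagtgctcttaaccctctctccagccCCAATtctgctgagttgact
The Arhgap6 promoter held 1 CCAAT match and 1 GC box match. The Hccs promoter held 6 GC box matches. The Cyp2c55 promoter held a TATA match at position -29 and a CCAAT match at -76, counted from the start of transcription. In Mrpl20 the matches were an E-box at -33 and a CCAAT box at position 31 after the start. A match describes letters and is no evidence of binding.

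Among the 72 members with a promoter in the RefSeq table, 69.4% held GGGCGG, 37.5% held CCAAT, 11.1% held CACGTG and 6.94% held TATAAA. Over the promoters of 14739 measured genes the shares were 50.3%, 38.3%, 8.43% and 12.3% in the same order of motifs. GGGCGG matches and the GC content of a window move together, and the median GC content was 60.2% in the members, against 57.7% in the promoters of measured genes. The first promoter listed for a gene was used, and 20 members had more than 1.

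The members that were higher in Casp1-null mice were led by Arhgap6, a GTPase-activating protein that switches off small GTPases. In liver it measured 9.26, 9.51 and 9.56 in Casp1-null mice, against 6.91, 6.38 and 6.35 in WT mice, a difference of 2.89 ± 0.18 (SE of the fit) or 7.44-fold. In ileum the values were 7.02, 7.29 and 7.53 in Casp1-null mice and 3.02, 4.31 and 2.92 in WT mice. The WT arrays of the intestine lay under the line for background. The level was therefore at least 12.6-fold higher in duodenum, at least 11.3-fold in jejunum and at least 14.6-fold in ileum of Casp1-null mice. No other member had as large a printed difference in any tissue, though in liver those of Cyp2c55 and Pttg1 are lower bounds.

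Other genes of small GTPases were members too. Rhobtb3, an atypical small GTPase relative with an ATPase activity known in human cells, measured 8.00, 6.78 and 7.23 in Casp1-null jejunum, against 4.97, 5.72 and 5.24 in WT jejunum. Its differences were 0.84 ± 0.15 in liver, 0.86 ± 0.29 in duodenum, 2.02 ± 0.29 in jejunum and 1.20 ± 0.29 in ileum. Arhgap31, which acts on Cdc42 and Rac, went the other way. It measured 4.50, 5.24 and 5.27 in Casp1-null ileum, against 6.81, 6.57 and 6.83 in WT ileum, and differed by -1.73 ± 0.20. In liver its difference was -0.35 ± 0.09, the groups lying close but not overlapping.

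Hddc3, which encodes a hydrolase that in human cells acts on NADPH, was higher in Casp1-null mice in all tissues. Its duodenal values were 9.31, 9.39 and 9.30 in Casp1-null mice, against 7.15, 6.95 and 7.25 in WT mice. They differed by 2.22 ± 0.14, or 4.65-fold, and in liver by 1.35 ± 0.11. Ocel1, a little-studied gene with a domain shared with occludin, measured 9.26, 9.43 and 9.05 in Casp1-null ileum and 7.51, 7.17 and 7.37 in WT ileum. Its differences were 1.01 in liver, 1.54 in duodenum, 1.80 in jejunum and 1.89 in ileum.

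Zfp791, a zinc finger protein, came directly after Arhgap6 on the higher side by the mean of the 4 differences, above Hddc3 and Ocel1. Its ileal values were 7.32, 6.69 and 6.75 in Casp1-null mice, against 4.20, 4.02 and 3.85 in WT mice. In liver both groups lay under the line for background, so its size there is not given, though it enters that mean. Klhl33, a kelch-family gene, was listed at 6.43, 5.13 and 4.85 in Casp1-null liver, against 3.38, 3.71 and 3.41 in WT liver, with its first Casp1-null array far above the others. In ileum both groups of Klhl33 were under the line.

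Abca3, a lipid transporter known for loading surfactant in the lung, measured 9.86, 9.61 and 9.23 in Casp1-null liver, against 8.46, 8.23 and 8.40 in WT liver. The difference was 1.21 ± 0.17, and 0.65 in jejunum, its least. Htra4, a serine protease of the HtrA family, had values of 8.36, 7.47 and 7.07 in Casp1-null duodenum and 5.54, 6.32 and 5.98 in WT duodenum. Lbp, the lipopolysaccharide-binding protein that hands bacterial lipid A to its receptors, was at 7.46, 7.32 and 8.26 in Casp1-null jejunum, against 6.09, 5.50 and 5.60 in WT jejunum, a difference of 1.94 ± 0.31. In liver, where Lbp was at its highest, the values were 10.69, 11.28 and 10.82 in Casp1-null mice and 10.67, 10.33 and 10.63 in WT mice, and the lowest Casp1-null array nearly touched the highest WT array. Lbp no longer met the rule without the second Casp1-null or the second WT liver array.

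On the lower side, Cyp2c55, a cytochrome P450 that metabolises arachidonic acid, came first by the mean of the 4 differences. Its liver values were 3.98, 3.72 and 3.78 in Casp1-null mice, against 6.56, 6.27 and 6.54 in WT mice, and the Casp1-null values lay under the line, so the level was at least 6.19-fold lower. In duodenum it measured 7.29, 6.13 and 9.69 in Casp1-null mice, against 10.01, 9.72 and 10.14 in WT mice. The third Casp1-null array of duodenum therefore came close to the lowest WT array, and the third Casp1-null arrays of jejunum and ileum were also the highest of their groups. The SE of the intestinal differences was 0.79, the largest of the named members. Cyp2c genes are near-identical, and probes of one may read transcripts of another.

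Camk2b, a subunit of the calcium- and calmodulin-dependent protein kinase, measured 5.77, 5.81 and 5.84 in Casp1-null jejunum, against 7.86, 7.62 and 8.01 in WT jejunum, a difference of -2.03 ± 0.15. In liver the Casp1-null mean was under the line and the level at least 3.09-fold lower. Calm3, one of the calmodulin genes, had differences of -0.61 in liver, -0.40 in duodenum, -0.65 in jejunum and -0.47 in ileum. Its coding sequence is close to those of the other calmodulin genes.

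Tfcp2l1, a transcription factor of the grainyhead-like family known from kidney and stem cells, varied most between tissues among the members that reached the line throughout. In jejunum it measured 6.61, 6.97 and 7.09 in Casp1-null mice, against 10.32, 9.91 and 9.83 in WT mice. The difference was -3.13 ± 0.20, or 8.76-fold lower, while in liver it was -0.38 ± 0.11. The largest of its 4 differences was 8.26 times the least. It no longer met the rule without the second Casp1-null liver array.

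Rpl34, a protein of the large ribosomal subunit, was lower in every tissue by a similar amount. Its values were 7.91, 7.95 and 7.93 in Casp1-null liver, against 9.51, 9.53 and 9.77 in WT liver, a difference of -1.67 ± 0.10. In jejunum, where it was least, the difference was -1.26 ± 0.12. Ribosomal protein genes have many near-identical pseudogenes, so which copies the probes read is uncertain. Churc1, a zinc-containing developmental regulator, differed most evenly of all members, by -1.20, -1.12, -1.16 and -1.23 in liver, duodenum, jejunum and ileum. Its ileal values were 7.46, 7.16 and 7.45 in Casp1-null mice and 8.49, 8.62 and 8.65 in WT mice.

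Cfi, the complement protease factor I that shuts down the complement cascade, is made mainly by the liver. There it measured 10.98, 11.25 and 10.81 in Casp1-null mice, against 11.89, 11.70 and 11.95 in WT mice, a difference of -0.83 ± 0.14. In duodenum and jejunum it was at least 3.62-fold and 3.47-fold lower in Casp1-null mice, and in ileum both groups were under the line. Pttg1, which encodes securin and holds back sister chromatid separation, measured 5.30, 4.81 and 4.96 in Casp1-null liver, against 7.67, 7.51 and 7.70 in WT liver. The mean of the Casp1-null group lay under the line, so the level was at least 6.08-fold lower. In intestine its differences ran from -1.04 to -0.75.

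B3gnt3, a glycosyltransferase that extends O-glycans of mucins, was at 9.53, 9.32 and 9.40 in Casp1-null jejunum, against 11.48, 11.25 and 11.16 in WT jejunum, a difference of -1.88 ± 0.12. Myo7a, an unconventional myosin of hair-cell and microvillus bundles, measured 6.08, 6.15 and 6.14 in Casp1-null duodenum and 7.52, 8.21 and 8.11 in WT duodenum. In liver its difference was -0.41.

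The mean difference of Mrpl20, a protein of the mitochondrial ribosome, was among the most even on the higher side. It measured 8.44, 8.99 and 8.52 in Casp1-null liver, against 7.54, 7.53 and 7.54 in WT liver, and 8.54, 8.37 and 8.60 in Casp1-null duodenum, against 7.21, 7.23 and 7.39 in WT duodenum. Mitochondrial genes went both ways: of 9, 5 were higher and 4 lower. Hccs, which attaches haem to cytochrome c, was higher by 1.03 to 0.74, with liver values of 9.11, 9.03 and 9.41 in Casp1-null mice, against 8.16, 8.11 and 8.18 in WT mice. Coq9, needed for ubiquinone, Cox18, which helps build the cytochrome c oxidase in human cells, and Ngrn were higher too. Ndufs5, an accessory subunit of complex I, measured 6.84, 6.86 and 6.69 in Casp1-null liver, against 7.94, 8.04 and 7.67 in WT liver. It differed by -1.09, -1.21, -1.18 and -1.13 in liver, duodenum, jejunum and ileum. Lyrm7, an assembly factor of complex III, Abhd10, and Mccc1, a subunit of methylcrotonyl-CoA carboxylase in leucine breakdown, were also lower. Both groups of Lyrm7 lay under the line for background in duodenum, jejunum and ileum.

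**Figure D1:**
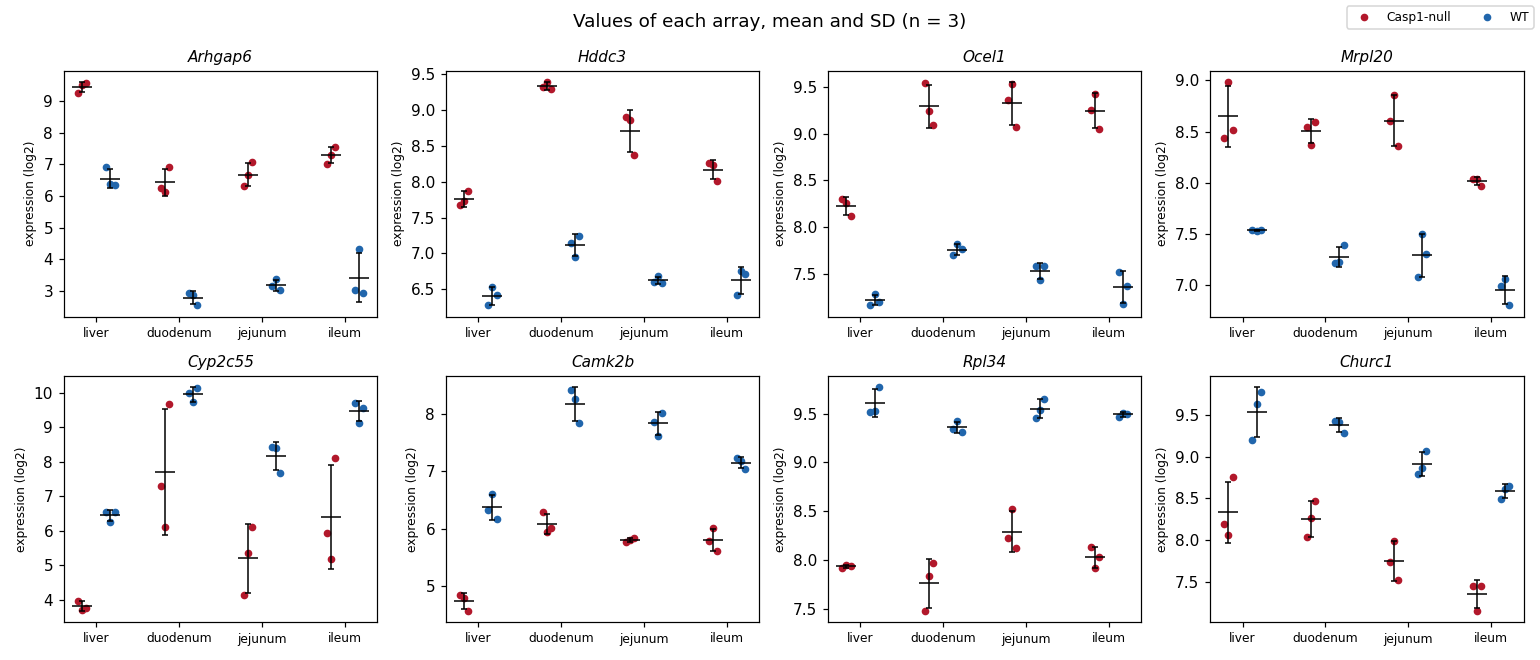
Log2 expression of 8 members in liver, duodenum, jejunum and ileum, with Casp1-null arrays left (red) and WT arrays right (blue); bars give the mean and SD of 3 arrays. The Casp1-null and WT arrays of a tissue do not overlap, as the choice of members required, and only Cyp2c55 in duodenum has a Casp1-null array at the edge of the WT range.

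The 86 members were assigned to roles after their values had been seen, and the groups support no test. All 7 members of glycosylation and glycan breakdown were lower in Casp1-null mice, as were 53 of the 86 members. They were B3gnt3, the core 1 O-glycan enzyme C1galt1, the collagen galactosyltransferase Colgalt1, the nucleotide sugar carrier Slc35a5, Pigp of glycosylphosphatidylinositol anchors, Tmem260 and the lysosomal arylsulfatase Arsb. Their mean differences lay between -1.24 and -0.40. Arsb differed most in liver, by -1.34, while Slc35a5 was even across tissues at -0.82, -0.90, -0.93 and -0.85 in liver, duodenum, jejunum and ileum.

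Of the 17 genes of transcription, chromatin and RNA, 5 were higher and 12 lower. The zinc finger genes numbered 7, of which Zfp791, Zfp868 and Zfp106 were higher and Zfp429, Zfp456, Zfp738 and Zfp39 were lower. The polycomb subunit Cbx7, the deacetylase Hdac1, the histone gene H2aj, Snapc1 and Lsm4 were lower. Taf1b, which works in ribosomal RNA transcription, and Strap were higher, and Tfcp2l1, Churc1 and Rpl34 were lower as described above.

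Of the 13 GTPases and signalling genes, 5 were higher and 8 lower. The higher ones were Arhgap6, Rhobtb3, Gng10, Gipc1 and the taste receptor subunit Tas1r3. Arhgap31, Camk2b, Calm3, the protein kinase inhibitor Pkig, the netrin receptor Unc5a, Ppp1r3e, the phosphatase Dusp23 and phospholipase Pld1 were lower. Among 7 membrane traffic and autophagy genes, Trappc2l, Tbc1d23, Ap5m1 and the autophagy protease Atg4b were higher, and Vps18, Ap4s1 and Spg11 were lower.

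Of 8 genes of metabolism and transport, 3 were higher, namely Hddc3, Abca3 and the thiopurine methyltransferase Tpmt. Lower were Cyp2c55, the sarcosine and pipecolate oxidase Pipox, Qpctl, Serinc2 and the zinc transporter Slc30a6. The 6 genes of defence and proteases divided evenly, with Lbp, Htra4 and Klra17 higher, and Cfi, Klrb1b and the calpain inhibitor Cast lower. Klra17, Klrb1b and Cfap126 lay under the line for background in both groups in all 4 tissues, and Klra17 belongs to a family of near-identical receptor genes. Of 8 cytoskeletal, division and matrix genes, Sfi1 and Nudcd3 were higher, and Myo7a, Pttg1, Cfap126, G2e3, Fgfr1op2 and the matrix protein Fras1 were lower. The remaining 11 were Ocel1, Klhl33, Phyhip, Glcci1, St7 and Pced1a, all higher, and Gm11545, Tmem245, Fam219a, Rnf187 and Hdhd2, all lower.

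**Figure D2:**
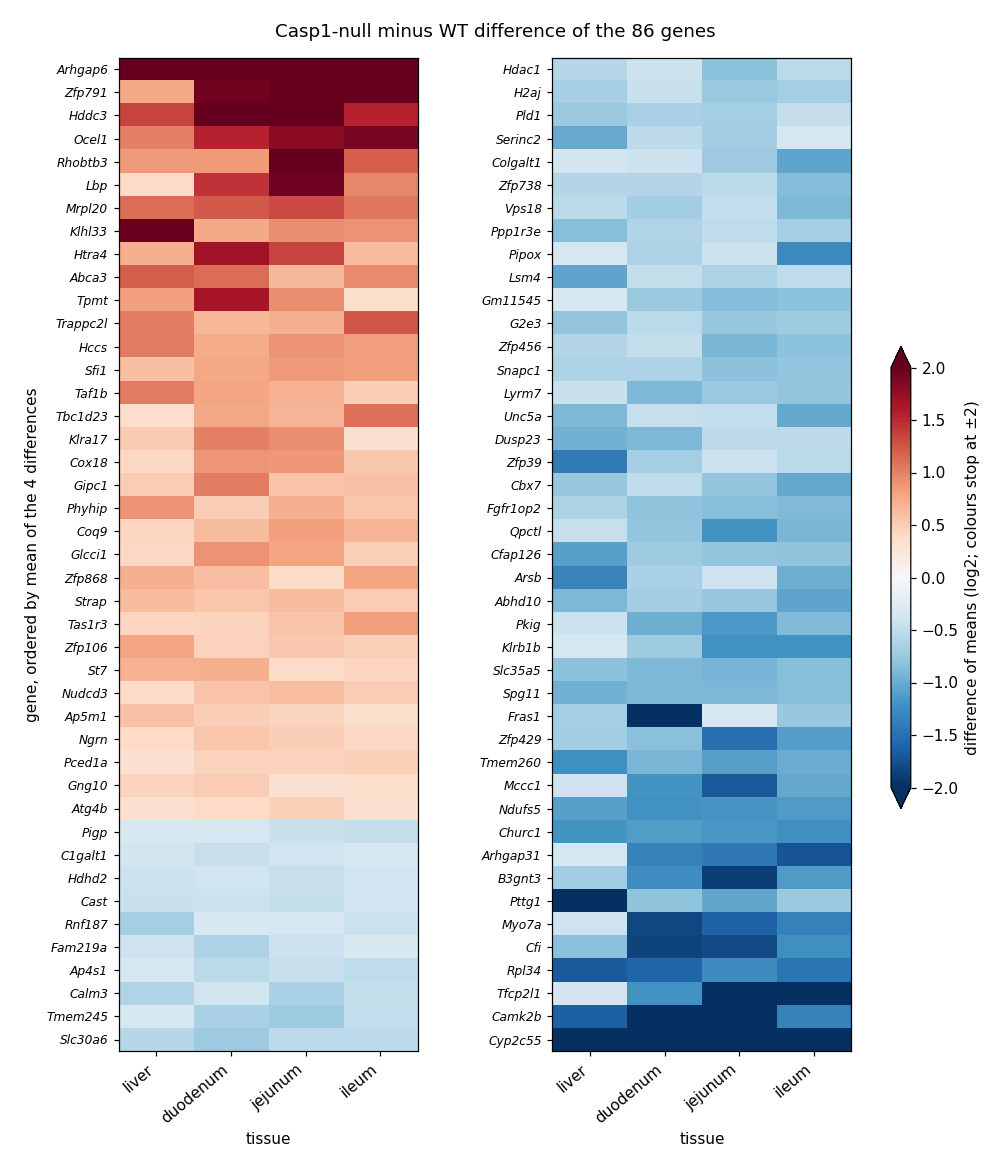
Casp1-null minus WT difference of mean log2 expression of each of the 86 members (rows, from highest to lowest mean difference) in liver, duodenum, jejunum and ileum (columns); red is higher and blue lower in Casp1-null mice, and colours stop at a difference of 2. Differences of groups under the line for background are drawn as measured. The 33 higher genes fill the first rows, led by Arhgap6, and the 53 lower ones end with Cyp2c55.

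Sizes were compared between tissues over the 67 members whose groups both reached the line for background in all 4 tissues. Their median size was 0.62 in liver, 0.69 in duodenum, 0.72 in jejunum and 0.79 in ileum. The rule chose members by these same differences, and groups that do not overlap need a larger difference where arrays spread more. The order of the tissues by size is therefore not read as a result. Over all genes the median of the signed difference, which is not a size, was -0.02 in duodenum and nearer to 0 in the other tissues. The largest of the 4 sizes was 1.86 times the least at the median over these members, with a range of 1.10 to 8.26. For 19 of them the ratio was under 1.5, and for 5 it was over 4, namely Tfcp2l1, Lbp, Arhgap31, Tpmt and Myo7a. Liver held the largest size for 15 of the 67 and the least for 28. Over all 86 members, 9 had a size of at least 1 in all 4 tissues: Arhgap6, Hddc3, Ocel1, Mrpl20, Cyp2c55, Camk2b, Rpl34, Churc1 and Ndufs5. Arhgap6, Cyp2c55 and Camk2b are not among the 67, and some of their sizes are lower bounds.

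No value was filtered out before the choice. In 11 members both groups were under the line for background in at least 1 tissue. Among them were Lyrm7 in all 3 segments, Zfp39 in duodenum and jejunum, Fras1 in jejunum and ileum, and Gm11545 and Tas1r3 in liver. The threshold of 0.3 passed through a close series of genes. Just inside it lay Gng10, at 0.30 in jejunum, and Pced1a, at 0.31 in liver, followed by Klra17, whose groups were under the line. Just outside lay Lamtor3, with a size of 0.30 in liver, A930005H10Rik, with 0.295 in ileum, and Dolpp1, with 0.295 in jejunum. In all, 136 genes were separated on the same side in all 4 tissues, of which 48 had a least size under the threshold.

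Arsb and Hdac1 have a second probe set each, and these too were separated on the same side in all 4 tissues. The second Hdac1 probe set differed by -0.55 in liver and -0.78 in jejunum. Over the members, 7 had 8 other probe sets, of which 3 had the same sign in all 4 tissues, the other being Pigp. Of the other probe sets, 4 were separated in no tissue, those of Colgalt1 and Nudcd3 lying under the line for background in all 4, and those of Pigp and 1 of the 2 of Zfp738 above it.

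The position of the members on the chromosomes was not used in choosing them. Of the 86, 29 (33.7%) had another member within 10 measured genes, while 7.69% of the other genes lay that close to a member. Within 5 genes the shares were 25.6% of members and 4.05% of other genes. The 29 formed 14 runs, 13 of 2 genes and 1 of 3, and the other 57 members lay alone. The order of genes came from the RefSeq gene table and, as the build behind the array annotation is not named, gene positions are left out.

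In 9 of the 14 runs all members lay on the same side. Arhgap6 and Hccs were both higher, with 1 measured gene between them, Amelx. On chromosome 3, Cfi and Rpl34 were both lower, and on chromosome 7, Ngrn and Hddc3 were both higher. Chromosome 4 carried Mrpl20 and Tas1r3, both higher. Chromosome 8 carried Colgalt1 and B3gnt3, both lower. Chromosome 13 carried the zinc finger genes Zfp456, Zfp429 and Zfp738, all lower and members of a cluster of near-identical genes. The 2 other probe sets of Zfp738 had mean differences over the 4 tissues of only -0.11 and -0.02. Each had the sign of the chosen probe set in 2 tissues. The other 3 runs on the same side were Zfp39 with Rnf187 on chromosome 11, G2e3 with Ap4s1 on chromosome 12 and Slc35a5 with Abhd10 on chromosome 16, all lower.

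In the other 5 runs the members lay on opposite sides. Camk2b was lower and its direct neighbour Nudcd3 was higher on chromosome 11, with differences of -2.03 and 0.61 in jejunum. Likewise Cast was lower and Rhobtb3 higher on chromosome 13, Tmem260 lower and Ap5m1 higher on chromosome 14, C1galt1 lower and Glcci1 higher on chromosome 6, and H2aj lower and Strap higher on chromosome 6. Mid1, the next measured gene after Hccs, had differences of 2.11 in liver, 0.99 in duodenum, 0.90 in jejunum and 1.04 in ileum, and is no member.

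**Figure D3:**
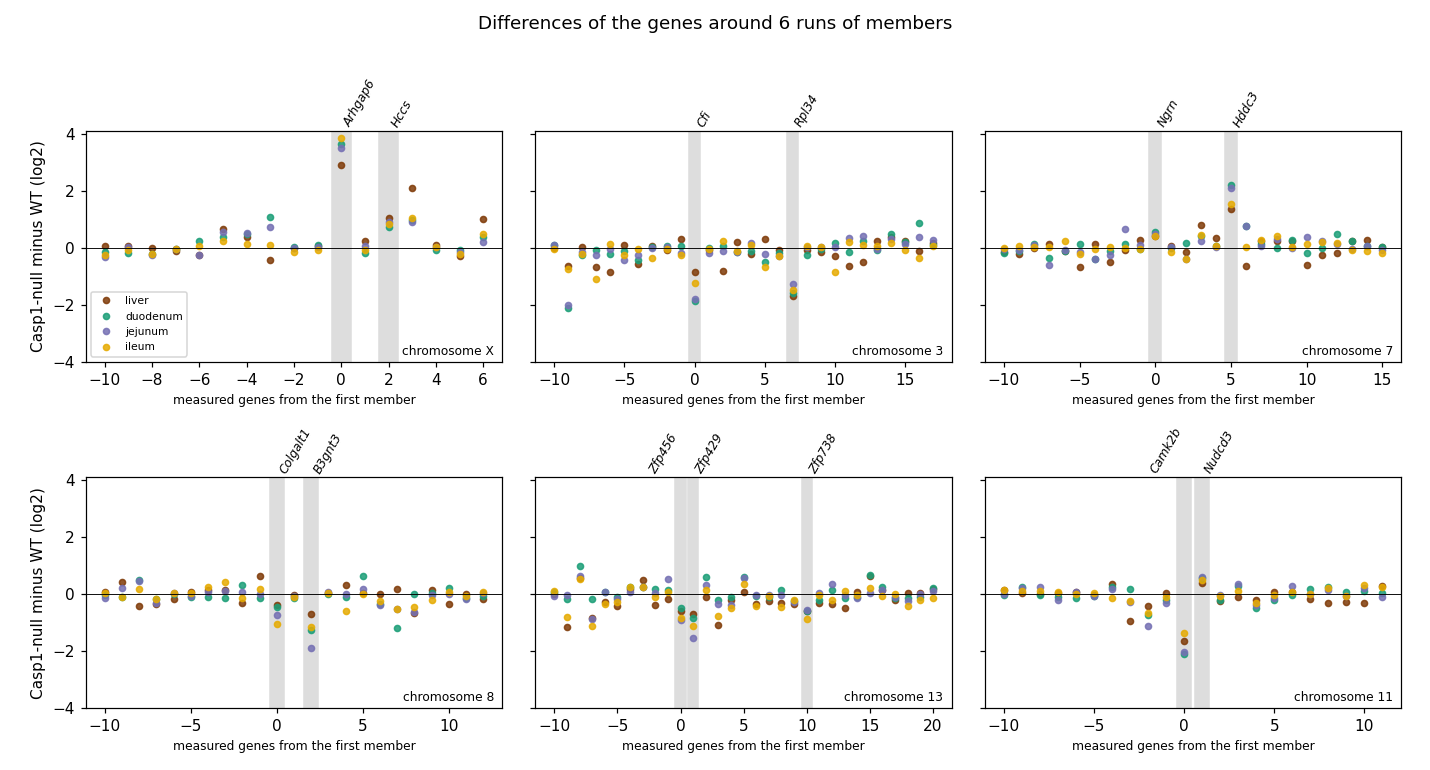
Casp1-null minus WT difference of mean log2 expression (vertical axis) of the measured genes around 6 runs of members, in gene order from the first member of the run (horizontal axis), with a colour for each tissue; grey bands mark members. Arhgap6 and Hccs, Cfi and Rpl34, Ngrn and Hddc3, Colgalt1 and B3gnt3, and the 3 zinc finger genes lie on one side of 0 within their run, while Camk2b and Nudcd3 lie on opposite sides.

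By chromosome, chromosome 8 held 10 members, 11.6% of them, against 4.75% of the measured genes, and chromosome 13 held 8, or 9.30% against 3.75%. Chromosome 9, which carries Casp1, held 0 of 1100 measured genes as members, and chromosome 10 likewise 0. Of the 18 measured genes within 10 of Casp1, 0 were members, a count too small to read against the 0.468% of all genes. Casp4 and Mmp13 met the rule of 1 tissue in at least 2 tissues, as 7.22% of all genes did, and Mmp13 did so on opposite sides, higher in duodenum and lower in ileum. Casp4, an inflammatory caspase next to Casp1, was lower by 1.97 on the log2 scale in jejunum of Casp1-null mice.

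The rule of 1 tissue was also counted over genes that were not members. Within 10 genes of a member the shares were 17.2% in liver, 17.03% in duodenum, 16.3% in jejunum and 9.66% in ileum. Farther away they were 9.36%, 10.7%, 9.42% and 3.24% in the same order of tissues. The shares of a tissue are counts over neighbouring genes, which are not independent. Genes near to and far from members were not matched for expression level, and no test was made.

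**Figure D4:**
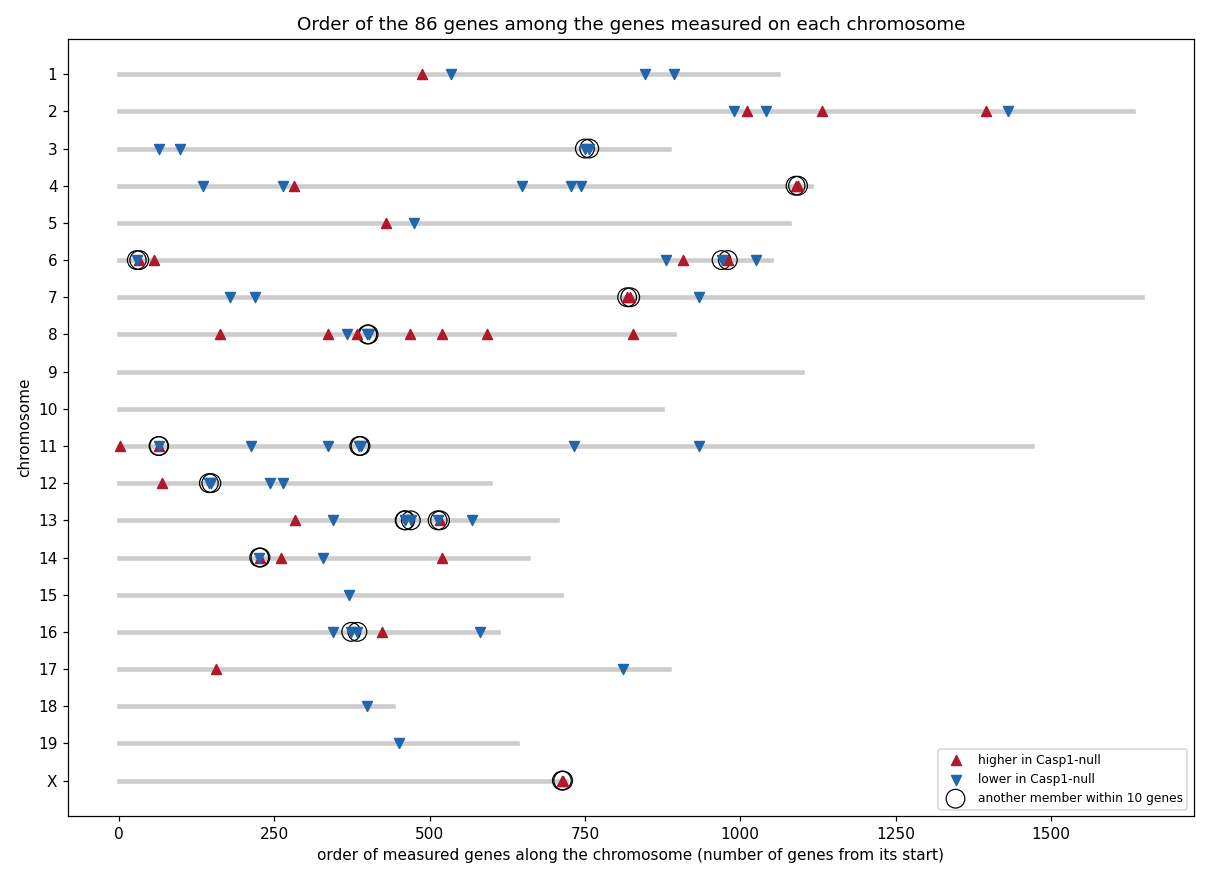
Position of the 86 members in the order of measured genes on each chromosome (horizontal axis, number of genes from the chromosome's start); red triangles point up for genes higher and blue triangles point down for genes lower in Casp1-null mice, and circles mark members with another member within 10 genes. Chromosomes 9 and 10 hold none, and chromosome 8 holds 10.

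How the members differed between tissues within 1 genotype was not used in choosing them and was tested. The choice was not independent of this test, however. Groups that do not overlap favour genes with a small spread between arrays, and that spread also enters the test. Members also lay at a higher level, with a median of 7.07 against 5.63 over all genes, and were not matched for it. A share of members above that of all genes is therefore not read as a result. A limma fit across all 35556 probe sets, with Benjamini-Hochberg adjustment over all of them, called genes at an adjusted p under 0.05. Between ileum and duodenum, 28 of 86 members were called in Casp1-null mice, 14 higher and 14 lower in ileum, while 10.8% and 10.2% of all genes were, 21% on either side. In WT mice it was 36, 18 higher and 18 lower, while 14.7% and 13.2% of all genes were, 27.9% on either side. Between jejunum and duodenum, 8 members were called in each genotype, 3 higher and 5 lower. Of all genes, 2.48% were higher and 3.37% lower in Casp1-null mice (5.85% on either side), and 3.37% and 4.38% in WT mice (7.76%).

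Between ileum and jejunum, 19 members were called in each genotype. In Casp1-null mice 11 were higher and 8 lower in ileum, beside 6.77% and 6.08% of all genes (12.8% on either side). In WT mice 12 were higher and 7 lower, beside 8.7% and 6.74% (15.4%). When liver was set against the 3 segments averaged, 67 members were called in Casp1-null mice, 37 higher and 30 lower in liver, beside 39.7% and 30.2% of all genes (69.9% on either side). In WT mice 66 were called, 36 higher and 30 lower, beside 39% and 31.1% (70.1%). As shares of the members in that contrast, 43.0% were higher and 34.9% lower in liver in Casp1-null mice, and 41.9% and 34.9% in WT mice. Atg4b, Cfap126, Gng10, H2aj, Phyhip, Taf1b and Zfp429 were called in no contrast.

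Tfcp2l1 was higher in ileum than in duodenum in both genotypes, by 1.55 ± 0.20 (SE) in Casp1-null mice and by 2.47 ± 0.20 in WT mice (limma adjusted p = 5.59e-05 and 3.88e-07). In WT mice it was already high in jejunum, by 2.28 over duodenum (limma adjusted p = 4.8e-06). In Casp1-null mice jejunum was not called against duodenum, and ileum was 1.20 above jejunum (limma adjusted p = 0.00127). Whether these steps differ between the genotypes was not tested, since that difference is part of the rule.

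Lbp was higher in ileum than in duodenum, by 2.43 in Casp1-null mice and 2.91 in WT mice (limma adjusted p = 5.33e-05 and 6.57e-06). It was higher still in liver, by 3.25 over the mean of the segments in Casp1-null mice and by 4.31 in WT mice. Rhobtb3 ran the other way along the intestine and was lower in ileum than in duodenum, with differences of -2.28 in Casp1-null mice and -2.62 in WT mice (limma adjusted p = 5.88e-05 and 1.11e-05). Churc1 was lower in ileum than in duodenum, with differences of -0.90 in Casp1-null mice and -0.79 in WT mice.

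Cfi was higher in liver than in intestine by 7.54 in Casp1-null mice and 6.75 in WT mice, and the intestinal mean of Casp1-null mice was under the line, so the first value is a lower bound. B3gnt3 was lower in liver than in intestine, with differences of -4.44 in Casp1-null mice and -5.15 in WT mice (limma adjusted p = 2.25e-19 and 1.94e-20). Cyp2c55 was lower in liver, with differences of -2.62 in Casp1-null mice and -2.75 in WT mice, and so was Camk2b, with -1.15 in Casp1-null mice and -1.34 in WT mice. The liver means of both genes in Casp1-null mice were under the line, so their sizes there are lower bounds. Arhgap6 was higher in liver by 2.65 in Casp1-null mice and by at least 3.42 in WT mice, whose intestinal mean was under the line.

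The level of Pttg1 in liver was lower than in intestine in Casp1-null mice, with a difference whose size was at least that of -0.94, and higher in WT mice, with 0.80 ± 0.11 (SE; limma adjusted p = 3.94e-07 and 3.04e-06). The mean over 3 arrays was 5.02 in Casp1-null liver, under the line, against 7.63 in WT liver. Within the intestine it was higher in ileum than in duodenum in both genotypes, by 0.92 in Casp1-null mice and 0.86 in WT mice.

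**Figure D5:**
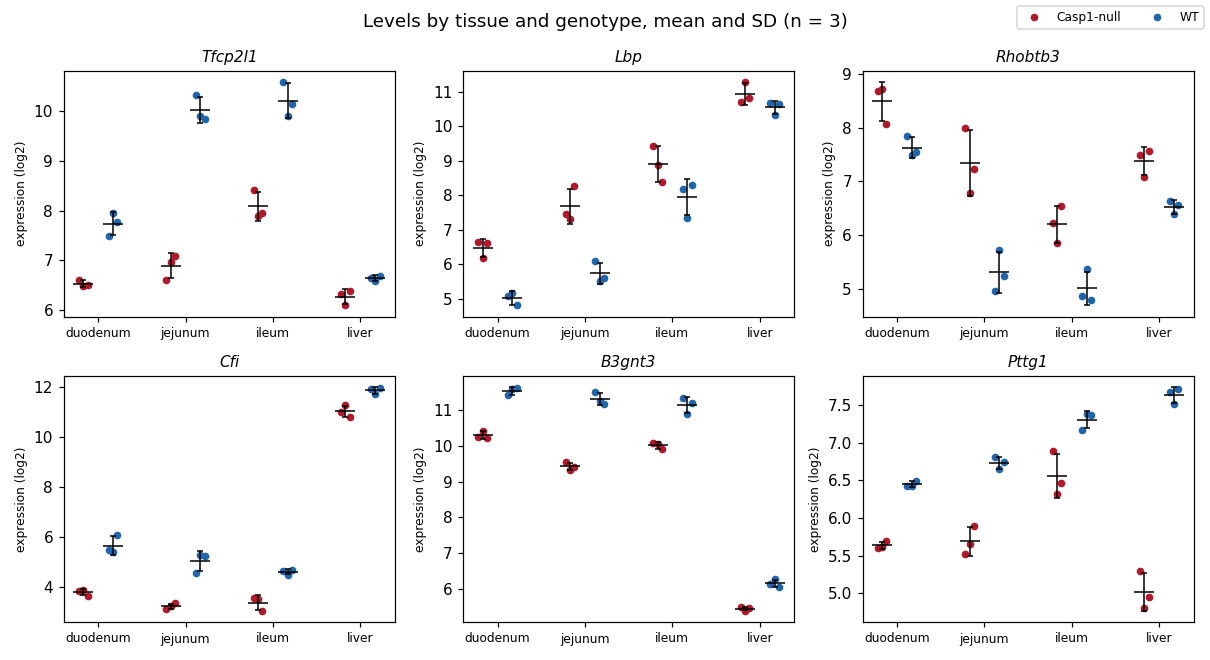
Log2 expression of 6 members along the duodenum, jejunum and ileum and in the liver, with Casp1-null arrays left (red) and WT arrays right (blue), and the mean and SD of 3 arrays as bars. Tfcp2l1 and Lbp climb towards the ileum in both genotypes, Rhobtb3 declines, Cfi is high in liver only, B3gnt3 high in intestine, and Pttg1 is highest in liver in WT mice but lowest there in Casp1-null mice.

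The 5 lists of related genes held 0 members, which cannot be read as a lack, since only 0.468% of all genes met the rule and the lists were short. Of 27 measured genes of the inflammasome list, 0 were higher and 1 lower in liver of Casp1-null mice, beside 4.38% and 6% of all genes. In duodenum 3 were higher and 6 lower, beside 7.56% and 4.03%, and in jejunum 2 and 7, beside 5.87% and 4.49%. In ileum 2 were higher and 5 lower, beside 2.12% and 2.07%. Casp1, the disrupted gene itself, and its neighbour Casp4 were among the lower genes in duodenum, jejunum and ileum alike. The lists of AIM2-like receptors, tyrosine breakdown, proline and hydroxyproline breakdown, and genes differing between C57BL/6J and C57BL/6N held 9, 4, 6 and 9 measured genes. Nnt, on the last list, was left out of the group by the rule.

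None of the members belonged to a cell type marker list either, though markers of other cell types differed between the genotypes in some tissues. In duodenum, 7.56% of all genes were higher and 4.03% lower by the rule of 1 tissue, to be set beside the counts of markers. The mean of the measured B and plasma cell markers there ran from 5.93 to 6.61 in Casp1-null mice, against 5.16 to 5.41 in WT mice, with 4 of 6 higher. The mean of the myeloid markers ran from 5.99 to 6.92 in Casp1-null mice, against 5.48 to 5.66 in WT mice, with 4 of 5 higher, and it was also separated in jejunum, at 6.14 to 7.37 in Casp1-null mice, against 5.66 to 6.06 in WT mice, where 0 of 5 met the rule singly. For smooth muscle and stroma in duodenum it ran from 5.41 to 5.80 in Casp1-null mice, against 4.76 to 4.91 in WT mice. There 5 of 8 were higher, and in jejunum the groups overlapped for this list. Exocrine pancreas markers ran from 4.71 to 4.90 in Casp1-null duodenum, against 5.10 to 10.4 in WT duodenum, with 1 of 5 lower. In liver, B and plasma cell markers ran from 4.60 to 4.68 in Casp1-null mice, against 4.86 to 5.26 in WT mice, with 4 of 6 under the line, and T and NK cell markers from 4.48 to 4.63 in Casp1-null mice, against 4.67 to 4.95 in WT mice, with 6 of 7 under it. The markers of ileum were also separated in liver, at 4.39 to 4.83 in Casp1-null mice, against 5.03 to 5.34 in WT mice, with 2 of 3 under the line. The mean of the enterocyte markers overlapped between the genotypes in liver. Singly, 5 of 6 were lower and 1 higher there, beside 6% and 4.38% of all genes, and 4 of 6 were under the line. The mean of the hepatocyte markers was separated in jejunum, at 4.73 to 4.94 in Casp1-null mice, against 4.49 to 4.68 in WT mice. Singly, 1 of 6 was higher and 1 lower, beside 5.87% and 4.49% of all genes, and 2 of 6 were under the line. In ileum none of these lists separated the genotypes, and the stroma list spread widely, from 4.69 to 8.74 in Casp1-null mice and 4.79 to 9.12 in WT mice. Their part in the differences of the members was not tested. Hepatocyte markers averaged 13.07 to 13.14 in Casp1-null liver and 13.06 to 13.16 in WT liver, and the markers of ileum averaged 10.04 to 10.46 in Casp1-null ileum and 10.10 to 10.68 in WT ileum.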

How the data were processed

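Expression was measured on single-colour whole-transcript arrays of mouse liver and intestine. The authors deposited log2 expression values per probe set, made with RMA, per the submitters' processing notes, whose version was not given. No rescaling was applied. Of 35556 probe sets, 21218 carried 1 symbol, 1881 several and 12457 none, by the platform annotation. The number of arrays limits the precision. The median of an array was 4.87 to 5.01 in intestine and 5.19 to 5.22 in liver.

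The members and lists were chosen with earlier results of these data known. Genes described array by array were the 10 members highest and the 10 lowest by the mean of their 4 differences, members under background in every tissue last, plus Hccs and Ndufs5 chosen after seeing values. SE came from limma 3.58.1 (R 4.3.3; lmFit and eBayes, without trend), on 6 liver arrays or 18 intestinal arrays. Tissue contrasts used 18 arrays among segments and 24 with liver, two-sided. The rule and fit were tested on simulated data. Alternatives changed the smallest difference, probe set choice, filter, centring, quantile normalization, fit and arrays left out. Python 3.11.15 and matplotlib 3.10.9 were also used.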

Additional observations from a re-analysis of the deposited data

How the results depend on the processing

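The count of 86 members became 36 at a smallest difference of 0.5 and 116 at 0.2. Other scalings and probe set choices gave 83 to 94, a filter on low values gave 77, and 76 of the 86 were kept after centring arrays on their medians. Leaving out 1 array in turn gave 85 to 105, the highest without the second WT ileum array, and 60 members were kept whichever array was left out. Leaving out an array can only narrow the range of its group. Members could thus be lost only through the smallest difference of 0.3, and the separation of the groups was not put to a test. Members called between jejunum and duodenum were 5 to 8 in Casp1-null and 5 to 8 in WT mice when 1 array was left out, with 5 without the second Casp1-null or the first WT duodenal array. Of 911 recomputed tissue differences of the named members, 83 were no longer called and 0 reversed. Centring moves liver against intestine by 0.27. With replicate number as a block, 30 members were called between ileum and duodenum in Casp1-null mice and 36 in WT mice, and no count moved by over 1.5 times. The labels do not say whether same-numbered arrays share a mouse. Correlations of deviations between same-numbered segments ran from -0.05 to 0.17 in Casp1-null mice and from -0.10 to 0.15 in WT mice. Between the genotypes of a tissue they ran from -0.38 to 0.30. They were over 0.1 in 3 of 9, 2 of 9 and 1 of 12 comparisons, in that order. With 3 arrays per group, such correlations cannot decide whether the numbers pair the samples.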

Other observations

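The same rule was met by probe sets that were not named by a single gene. Of 12457 probe sets without a symbol, 52 (0.417%) met it, and of 1881 with several symbols 8 (0.425%), against 100 (0.471%) of 21218 with 1 symbol. These were not given gene names. The median over members of the mean level was 7.07, against 5.63 over all genes.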
